A study of Mus musculus with 12 samples.

Results

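Bst1, Cd38, Nt5e, Entpd1 and Enpp1 encode enzymes that stand on the outer face of cells and take apart NAD and extracellular nucleotides. These 5 genes were followed, out of 39017 in the count tables, across 12 RNA sequencing libraries of 4T1, a mouse triple-negative breast cancer line in which POGZ, a zinc finger protein of chromatin, was targeted. Bst1 was chosen by its rise in cultures labelled POGZ KO over VC cultures, and the other 4 were picked by name as enzymes of the same pathways with results of these data already known. Values of all 5 members between KO and VC cultures, and the differences built on them, are therefore given as descriptions without a test. The groups were 3 KO-labelled tumors, 3 VC-labelled tumors, 3 KO-labelled cultures and 3 VC-labelled cultures. The KO groups carry the genotype label POGZ KO and the VC groups POGZ WT, and every sample is 4T1. Tumors came from 50k cells placed in the mammary fat pad (MFP-4) of BALB/c mice aged 8 weeks and were taken after 28 days, so a tumor holds host cells beside carcinoma cells. Cultures grew in DMEM with 10% FBS to 75% confluency. The labels do not say whether the libraries of a culture group came from separate cultures or clones, so p-values measure the spread between these samples, which may be technical.

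Extracellular NAD is split by the glycohydrolases CD38 and BST1 (CD157), relatives that also make cyclic ADP-ribose, a calcium messenger. CD38 is known from plasma cells, macrophages and other immune cells, and BST1 from myeloid and stromal cells. ATP outside cells is shortened to AMP by ENTPD1 (CD39), and NT5E (CD73) turns AMP into adenosine, which dampens immune cells in tumors. ENPP1 cuts ATP to AMP and pyrophosphate and also degrades extracellular cGAMP, the messenger that activates STING.

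Levels are given in CPM, counts scaled to the total count of the library. Total counts ran from 12128993 to 13043831 in KO tumors, 4712001 to 8338828 in VC tumors, 14724518 to 21863223 in KO cultures and 17714560 to 18643217 in VC cultures. Pogz RNA went against the KO label in culture, at 68.3 ± 0.428 CPM in KO cultures and 50.3 ± 2.03 CPM in VC cultures (SD, n = 3 each). Its log2 fold change was 0.45 ± 0.04 (SE; edgeR quasi-likelihood test, Benjamini-Hochberg adjusted p = 3.66e-06), and in tumors it was 0.11 (edgeR, adjusted p = 0.944). KO and VC therefore stand for the label throughout, and POGZ loss and any further difference between the lines cannot be told apart. The 8 carcinoma epithelium markers were counted in every group. Their summed level lay between 1680 and 2260 CPM in tumors and between 3200 and 3630 CPM in cultures. Not every marker went with the sum. Cdh1, Krt7, Krt8, Krt18 and Krt19 were lower in tumors under both labels. Epcam averaged 386 CPM in KO tumors and 555 CPM in VC tumors, against 230 CPM in KO cultures and 326 CPM in VC cultures. Krt14 was also higher in tumors under both labels, and Cldn7 was low in all groups. Summed markers of fibroblasts, macrophages, endothelium and other host cells are given for all groups beside the results below. Fewer cells of a type and less RNA per cell cannot be told apart in such bulk samples.

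The start regions of the members differed in CG content, and a relation of this content to RNA level was not tested. The sequences below run 5′ to 3′ from 250 bases before to 50 bases after the transcript start. They are RefSeq promoters on GRCm38.p6, of which 4 of 5 members had at least 1, and capitals mark every CG.
Cd38, chr5:43868559-43868858, plus strand: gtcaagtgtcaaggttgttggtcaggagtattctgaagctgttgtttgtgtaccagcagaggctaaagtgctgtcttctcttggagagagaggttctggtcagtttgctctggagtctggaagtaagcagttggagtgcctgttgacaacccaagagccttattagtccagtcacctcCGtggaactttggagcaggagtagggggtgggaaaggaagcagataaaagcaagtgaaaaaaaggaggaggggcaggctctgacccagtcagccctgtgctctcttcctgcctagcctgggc
Nt5e, chr9:88327359-88327658, plus strand: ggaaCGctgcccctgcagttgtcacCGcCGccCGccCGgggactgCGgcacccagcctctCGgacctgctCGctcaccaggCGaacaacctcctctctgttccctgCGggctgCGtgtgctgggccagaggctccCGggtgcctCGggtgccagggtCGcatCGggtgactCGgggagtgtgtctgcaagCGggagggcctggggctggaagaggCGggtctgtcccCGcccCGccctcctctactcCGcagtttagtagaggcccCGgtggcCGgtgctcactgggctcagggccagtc
Entpd1, upstream start, chr19:40612116-40612415, plus strand: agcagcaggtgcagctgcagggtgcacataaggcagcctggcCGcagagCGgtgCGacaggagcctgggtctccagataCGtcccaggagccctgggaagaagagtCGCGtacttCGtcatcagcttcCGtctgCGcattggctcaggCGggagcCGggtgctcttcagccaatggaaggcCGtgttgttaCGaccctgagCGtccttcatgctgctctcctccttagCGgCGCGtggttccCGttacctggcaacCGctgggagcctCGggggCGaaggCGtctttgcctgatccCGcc
Entpd1, downstream start, chr19:40659520-40659819, plus strand: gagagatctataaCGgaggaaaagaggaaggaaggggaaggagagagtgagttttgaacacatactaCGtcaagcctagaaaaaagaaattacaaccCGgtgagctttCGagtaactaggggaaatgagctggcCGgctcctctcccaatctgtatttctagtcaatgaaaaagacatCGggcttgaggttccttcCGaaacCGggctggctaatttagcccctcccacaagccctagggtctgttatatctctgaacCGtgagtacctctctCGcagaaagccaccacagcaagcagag
Enpp1, chr10:24712110-24712409, minus strand: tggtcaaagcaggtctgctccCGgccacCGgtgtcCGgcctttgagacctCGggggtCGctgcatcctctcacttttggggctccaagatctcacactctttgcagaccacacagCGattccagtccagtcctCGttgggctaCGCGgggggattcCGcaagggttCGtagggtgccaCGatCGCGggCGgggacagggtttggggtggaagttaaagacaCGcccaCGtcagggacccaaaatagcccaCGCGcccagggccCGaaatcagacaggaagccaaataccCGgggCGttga
The motif searched was CG, which reads the same on both strands and cannot overlap itself. The Cd38 window held 1 CG, and 94.6% of 32851 promoters of the same length held as many or more. The Nt5e window held 23 and the Enpp1 window 22, against a median of 7 over all promoters, and 21.5% and 23.1% of promoters held as many. The upstream Entpd1 window also held 23, and the downstream one held 10, a number reached by 43.5% of promoters.

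Bst1 (ENSMUSG00000029082, chromosome 5, 43818885 to 43843986, plus strand, GRCm38) was far higher in KO than in VC cultures, whereas KO and VC tumors overlapped and their difference did not pass the test. KO tumors POGZ_KO_8454, POGZ_KO_8455 and POGZ_KO_8459 had 13.7, 70.5 and 33.9 CPM of Bst1, and VC tumors POGZ_VC_8447, POGZ_VC_8448 and POGZ_VC_8451 had 21.6, 9.47 and 28.7 CPM. The ranges of the tumor groups overlapped, with 2 of 3 KO tumors above all VC tumors and the third between them. KO cultures had 145, 150 and 140 CPM of Bst1, against 8.92, 9.39 and 9.45 CPM in VC cultures. The culture groups stood wide apart and each was tight, with the highest KO culture at 1.08 times the lowest. In tumors the highest KO library was at 5.15 times the lowest, and the highest VC library at 3.03 times the lowest.

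Between tumors, the Bst1 log2 fold change of KO over VC was 0.98 ± 0.60 (SE, n = 3 each; edgeR, adjusted p = 0.861), and the two-sided exact permutation p was 0.4. This value rests on single tumors. It was 0.26 ± 0.53 without KO tumor POGZ_KO_8455 and 1.38 ± 0.47 without KO tumor POGZ_KO_8454 (edgeR, adjusted p = 0.992 and 0.302). Between cultures, where Bst1 was selected, the log2 fold change was 3.97 ± 0.05, and 6 of 15705 genes had a larger one. The tumor value less the culture value was -2.99 ± 0.67.

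Bst1 differed in opposite directions between culture and tumor under the 2 labels. KO tumors averaged 39.3 ± 28.8 CPM and KO cultures 145 ± 5.26 CPM (SD, n = 3 each), a log2 fold change of -1.84 ± 0.51, and all 3 KO tumors lay below all KO cultures. The share of genes with KO tumors all below KO cultures is not given here. Bst1 was also selected for its high level in KO cultures, so nothing is read from this gap. VC tumors averaged 19.9 ± 9.73 CPM and VC cultures 9.25 ± 0.291 CPM, a log2 fold change of 1.10 ± 0.35. All 3 VC tumors lay above all VC cultures, as was the case for 38.0% of genes, but VC tumor POGZ_VC_8448 only just did so. The VC difference was 0.66 without VC tumor POGZ_VC_8451 and 1.44 without VC tumor POGZ_VC_8448, and the KO difference was -1.46 without KO tumor POGZ_KO_8454 and -2.58 without KO tumor POGZ_KO_8455.

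The fibroblast markers, 8 genes including the collagens Col1a1 and Col3a1, moved partly with Bst1 among tumors. Their summed level was 3500, 6580 and 4680 CPM in KO tumors POGZ_KO_8454, POGZ_KO_8455 and POGZ_KO_8459, and 3800, 2340 and 3000 CPM in VC tumors POGZ_VC_8447, POGZ_VC_8448 and POGZ_VC_8451. The tumor with most Bst1, POGZ_KO_8455, and the one with least, POGZ_VC_8448, were also highest and lowest for these markers. This was not particular to fibroblasts. The same tumors were highest and lowest for pericyte markers (275 and 161 CPM) and endothelial markers (312 and 162 CPM). Macrophage markers were also lowest in POGZ_VC_8448 (838 CPM), but POGZ_KO_8455 had 1170 CPM against 2640 CPM in KO tumor POGZ_KO_8459. In KO cultures the fibroblast sum was 19.5 to 20.4 CPM and in VC cultures 27.4 to 31.0 CPM, with Dcn, Lum and Dpt at 0, so the high Bst1 of KO cultures came with little fibroblast marker RNA. Most of this culture sum was Pdgfra, at a mean of 15.6 CPM in KO cultures and 26.5 CPM in VC cultures. Pdgfra averaged 115 CPM in KO tumors and 57.8 CPM in VC tumors. The part of stromal cells in the tumor values was not tested.

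**Figure D1:**
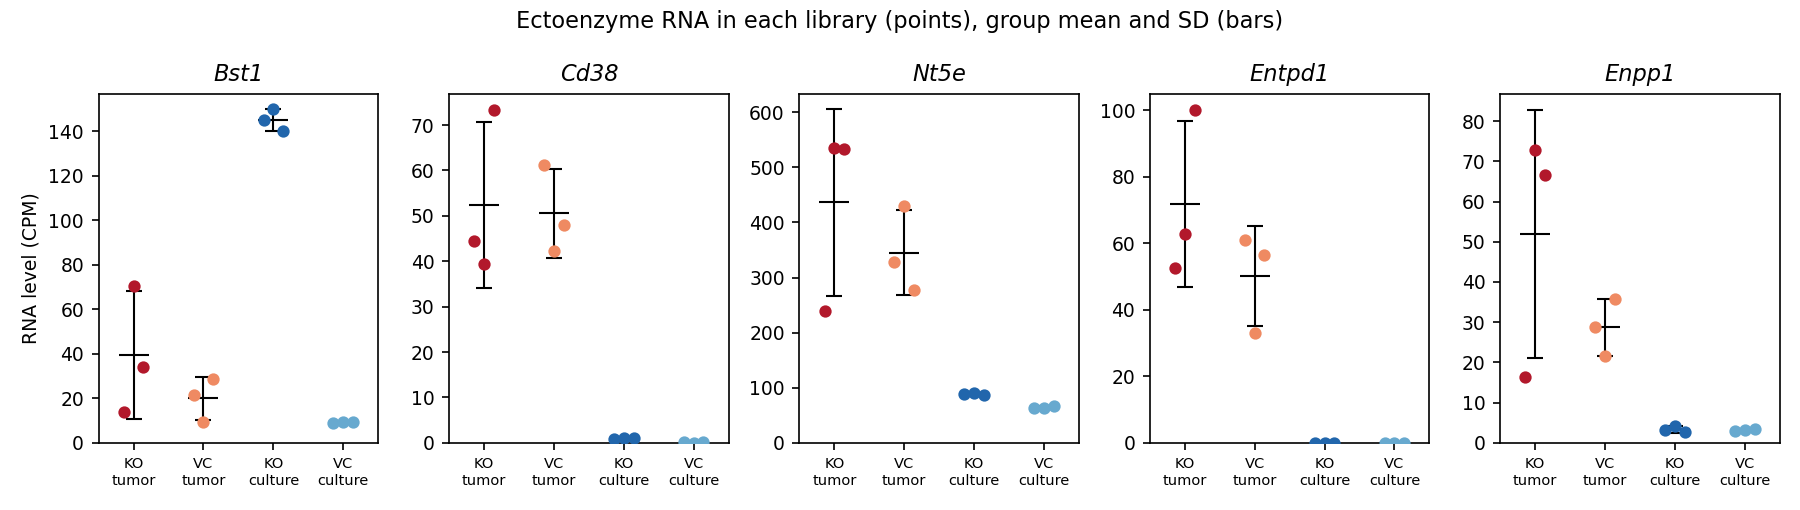
RNA level of the 5 ectoenzymes in each library, in CPM on linear axes from 0 that differ between panels. Points are libraries, and bars are the group mean and SD (n = 3). Bst1 is highest in KO cultures at 140 to 150 CPM, whereas the other members are highest in tumors, with overlapping KO and VC tumors in all 5 panels.

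Cd38 (ENSMUSG00000029084, chromosome 5, 43868553 to 43912375, plus strand), the other NAD glycohydrolase, was read mainly in tumors. KO tumors POGZ_KO_8454, POGZ_KO_8455 and POGZ_KO_8459 had 44.5, 39.5 and 73.3 CPM, and VC tumors POGZ_VC_8447, POGZ_VC_8448 and POGZ_VC_8451 had 61.3, 42.3 and 48.0 CPM. The tumor groups overlapped on both sides. KO cultures had 0.927, 1.15 and 1.01 CPM, from 16, 17 and 22 counts, against 0.169, 0.0536 and 0.216 CPM in VC cultures, from 3, 1 and 4 counts. All KO cultures lay above all VC cultures, at levels of few reads.

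The tumor log2 fold change of Cd38, KO over VC, was 0.07 ± 0.27 (SE, n = 3 each; edgeR, adjusted p = 0.976; two-sided exact permutation p = 1.0). Its sign turned when either of 2 libraries was left out. It was -0.27 ± 0.21 without KO tumor POGZ_KO_8459 and -0.05 ± 0.30 without VC tumor POGZ_VC_8448. KO tumor POGZ_KO_8459 had the most Cd38 and also the most B and plasma cell marker RNA, a sum of 1230 CPM over 8 genes. The other KO tumors had 4.45 and 27.1 CPM of these markers, and VC tumors had 1.44 to 8.91 CPM, with Mzb1 and Tnfrsf17 at 0. KO cultures had 0.136 to 0.32 CPM and VC cultures 0.161 to 0.282 CPM, with Ms4a1 at 0. Tumor POGZ_KO_8455, second for these markers, had the least Cd38. Macrophage marker sums were highest in KO tumor POGZ_KO_8459 (2640 CPM) and next in VC tumor POGZ_VC_8447 (1640 CPM), the same first and second tumors as for Cd38, and T and NK cell markers were also highest in these tumors (132 and 68.8 CPM). The part of any of these cells in the Cd38 value was not tested. In culture the Cd38 log2 fold change, KO over VC, was 2.76 ± 0.41, and the tumor value less the culture value was -2.68 ± 0.57.

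Cd38 was higher in tumors than in cultures under both labels. The log2 fold change was 5.72 ± 0.32 for KO tumors over KO cultures (edgeR, adjusted p = 4.48e-05) and 8.33 ± 0.30 for VC tumors over VC cultures (edgeR, adjusted p = 6.81e-07). The counts behind them were 1948 in KO tumors against 55 in KO cultures, and 1003 in VC tumors against 8 in VC cultures. At 8 counts in VC cultures, Cd38 passed the count filter under VC only through the tumors, so that call could only be higher. Scaled by the totals, these were 51.1 times as many in KO tumors (95% exact interval 39.1 to 68.0, counting error only) and 334 times as many in VC tumors (169 to 776).

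The balance of the 2 glycohydrolases differed between the systems. For every 100 Bst1 counts there were 325, 56.0 and 216 Cd38 counts in KO tumors POGZ_KO_8454, POGZ_KO_8455 and POGZ_KO_8459, and 283, 447 and 167 in VC tumors. KO cultures had 0.642, 0.770 and 0.721 Cd38 counts for every 100 of Bst1, and VC cultures had 1.9, 0.571 and 2.29. Only tumor POGZ_KO_8455, the one with most Bst1, held fewer Cd38 than Bst1 counts among the 6 tumors. The KO cultures lay within the range of the VC cultures, which rests on 8 Cd38 counts.

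Entpd1 (ENSMUSG00000048120, chromosome 19, 40612366 to 40741602, plus strand), which opens the ATP to adenosine route, was seen in tumors and was at the edge of detection in cultures. KO tumors POGZ_KO_8454, POGZ_KO_8455 and POGZ_KO_8459 had 52.6, 62.9 and 100 CPM, and VC tumors POGZ_VC_8447, POGZ_VC_8448 and POGZ_VC_8451 had 61.1, 33.1 and 56.5 CPM. The groups overlapped, with 2 of 3 KO tumors above all VC tumors. The 3 KO cultures held 1 Entpd1 count in all, and the 3 VC cultures also held 1. A count of 3 in a library, the limit that a count of 0 allows, corresponds to 0.137 to 0.204 CPM in KO cultures and 0.161 to 0.169 CPM in VC cultures.

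Entpd1 passed the test between tumors and cultures under both labels (edgeR, adjusted p = 3.35e-05 for KO and 2.27e-06 for VC). With 1 count in each culture group, it passed the count filter only through the tumors. It could thus only be called higher, and nothing is read from the call. KO tumors held 2680 counts against 1 in KO cultures, a ratio of 3860 per total count with a 95% exact interval of 693 to 153000. VC tumors held 989 counts against 1 in VC cultures, a ratio of 2640 with an interval of 472 to 104000. The macrophage and monocyte markers, 11 genes, summed to 1170 to 2640 CPM in KO tumors, 838 to 1640 CPM in VC tumors, 44.2 to 47.9 CPM in KO cultures and 54.1 to 57.6 CPM in VC cultures. Ms4a7 was at 0 in both culture groups, and C1qb, C1qc and Fcgr1 were at 0 in KO cultures. KO tumor POGZ_KO_8459 had both the most Entpd1 and the most macrophage marker RNA, and VC tumor POGZ_VC_8448 the least of both. The same tumors were also highest and lowest for T and NK cell markers (132 and 46.3 CPM) and B and plasma cell markers (1230 and 1.44 CPM). Dendritic cell and MHC class II markers were instead highest in VC tumor POGZ_VC_8447 (1250 CPM). The share of host cells in the tumor signal was not tested.

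Between tumors the Entpd1 log2 fold change, KO over VC, was 0.53 ± 0.31 (SE, n = 3 each; edgeR, adjusted p = 0.861; two-sided exact permutation p = 0.4). It was 0.20 ± 0.27 without KO tumor POGZ_KO_8459 and 0.71 ± 0.31 without KO tumor POGZ_KO_8454 (edgeR, adjusted p = 1.0 and 0.391).

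Nt5e (ENSMUSG00000032420, chromosome 9, 88327197 to 88372092, plus strand), the enzyme that releases adenosine, was expressed in cultures and tumors alike, as Bst1 was, and was higher in tumors. KO tumors POGZ_KO_8454, POGZ_KO_8455 and POGZ_KO_8459 had 240, 536 and 534 CPM, and VC tumors POGZ_VC_8447, POGZ_VC_8448 and POGZ_VC_8451 had 328, 430 and 278 CPM. Tumor POGZ_KO_8454 was the lowest of all 6 and the other KO tumors the highest, so the groups overlapped. KO cultures had 87.8, 89.5 and 87.5 CPM, against 62.8, 63.2 and 67.6 CPM in VC cultures, and these groups stood apart by a small step. The culture log2 fold change was 0.46 ± 0.04, and the tumor value less the culture value was -0.12 ± 0.34, a difference that turned to 0.17 without KO tumor POGZ_KO_8454 and to 0.07 without VC tumor POGZ_VC_8448.

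In tumors the Nt5e log2 fold change, KO over VC, was 0.34 ± 0.32 (SE, n = 3 each; edgeR, adjusted p = 0.914; two-sided exact permutation p = 0.6). It was 0.63 ± 0.21 without KO tumor POGZ_KO_8454 (edgeR, adjusted p = 0.29) and 0.15 ± 0.35 without KO tumor POGZ_KO_8459 (edgeR, adjusted p = 1.0). Nt5e was higher in tumors by a log2 fold change of 2.35 ± 0.30 for KO tumors over KO cultures (edgeR, adjusted p = 0.000718) and 2.42 ± 0.16 for VC tumors over VC cultures (edgeR, adjusted p = 1.09e-05). By value these were the smallest tumor over culture differences of the 4 members tested.

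Enpp1 (ENSMUSG00000037370, chromosome 10, 24637914 to 24712159, minus strand), the pyrophosphatase that also removes cGAMP, was low in culture under both labels. KO tumors POGZ_KO_8454, POGZ_KO_8455 and POGZ_KO_8459 had 16.4, 72.8 and 66.6 CPM, and VC tumors POGZ_VC_8447, POGZ_VC_8448 and POGZ_VC_8451 had 28.9, 21.5 and 35.7 CPM. As for Nt5e, KO tumor POGZ_KO_8454 was below every VC tumor and the other KO tumors were above. KO cultures had 3.19, 4.21 and 2.61 CPM, against 2.88, 3.22 and 3.46 CPM in VC cultures, and the groups overlapped. The culture log2 fold change was 0.04 ± 0.19, and -0.14 without KO culture 2 or -0.02 without VC culture 1, and the tumor value less the culture value was 0.80 ± 0.63.

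Between tumors the Enpp1 log2 fold change, KO over VC, was 0.86 ± 0.50 (SE, n = 3 each; edgeR, adjusted p = 0.861; two-sided exact permutation p = 0.4). It was 1.27 ± 0.23 without KO tumor POGZ_KO_8454 and 0.54 ± 0.54 without KO tumor POGZ_KO_8455 (edgeR, adjusted p = 0.155 and 0.992). Enpp1 was higher in tumors by a log2 fold change of 4.02 ± 0.58 for KO tumors over KO cultures (edgeR, adjusted p = 0.00122) and 3.17 ± 0.22 for VC tumors over VC cultures (edgeR, adjusted p = 1.38e-05).

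**Figure D2:**
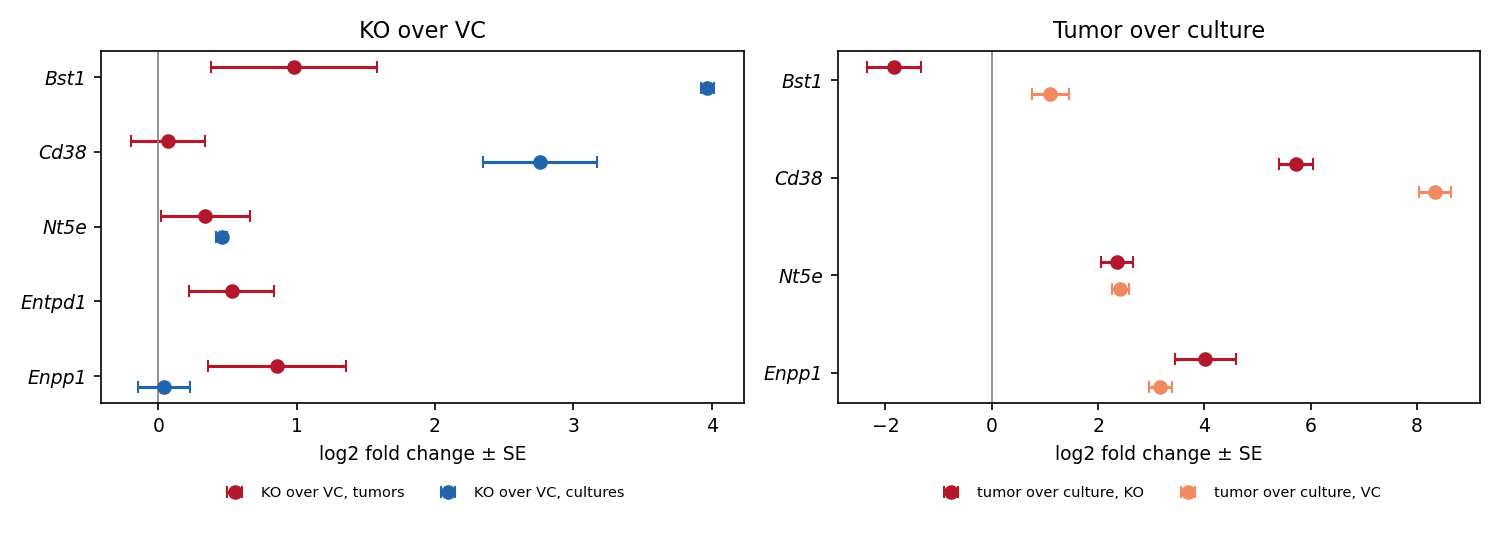
Log2 fold changes with their SE for the 5 members, KO over VC on the left and tumor over culture on the right. Entpd1 is left out where a culture group had 1 count. Bst1 is at 3.97 in cultures and 0.98 in tumors, and it is the only member below 0 in the tumor over culture panel, at -1.84 for KO.

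Across the members, 0 of 5 were called between KO and VC tumors at an adjusted p under 0.05, where edgeR called 0% of 17153 genes. At an unadjusted p under 0.05 there were 956 genes, none of them a member. DESeq2 called 66 genes and limma-voom 0, again without a member. No member had KO tumors all above VC tumors, which was the case for 4.96% of genes. With 3 against 3 samples the smallest two-sided exact permutation p is 0.1.

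Cd38, Nt5e, Entpd1 and Enpp1, the 4 members tested between tumors and cultures, were all called higher under both labels. Entpd1 under both labels and Cd38 under VC passed the count filter only through the tumors. Their calls could only be higher, and nothing is read from them. Of all genes, 35.3% were called higher and 26.0% lower in KO tumors than in KO cultures, and 35.7% higher and 29.5% lower in VC tumors than in VC cultures. Every tumor lay above every culture of its label for these 4 genes, as it did for 38.0% of all genes under either label (exact permutation p = 0.1 for each). Tumors and cultures also came from separate tables and were handled differently, so the system and its handling cannot be told apart. In the comparison of cultures, 3 of the 4 members that passed the count filter had KO above VC in every sample (Bst1, Cd38 and Nt5e; Entpd1, with 1 count in each group, did not pass), as had 25.8% of genes, and nothing is read from this because Bst1 was selected there. The 4 comparisons share samples pairwise, and the values above stand side by side only.

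Compared per length, as CPM per kilobase of exon, the order of the members changed between the systems. In tumors Nt5e came first, at 50.7 ± 19.8 in KO tumors and 40.2 ± 9.02 in VC tumors (SD, n = 3 each). Cd38 was at 13.5 ± 4.69 in KO tumors and 13 ± 2.51 in VC tumors, and Entpd1 at 12.9 ± 4.50 in KO tumors and 9.0 ± 2.69 in VC tumors. Bst1 followed at 11.9 ± 8.67 in KO tumors and 6.01 ± 2.93 in VC tumors, and Enpp1 at 5.06 ± 3.01 in KO tumors and 2.80 ± 0.696 in VC tumors. Nt5e stood above the other members in all 6 tumors, whereas Cd38, Entpd1 and Bst1 lay within each other's spread in KO tumors. The order Nt5e, Cd38, Entpd1, Bst1, Enpp1 held in 5 of 6 tumors, and KO tumor POGZ_KO_8455 had Bst1 second.

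In KO cultures Bst1 came first at 43.6 ± 1.59 per kilobase, above Nt5e at 10.3 ± 0.123. In VC cultures Nt5e came first at 7.50 ± 0.308, above Bst1 at 2.79 ± 0.0879. Bst1 was selected on these cultures, so its place in their order is a description only. Enpp1 and Cd38 were low, at 0.325 ± 0.0792 and 0.265 ± 0.0297 in KO cultures, where their ranges overlapped, and at 0.311 ± 0.0283 and 0.0376 ± 0.0215 in VC cultures, where they did not. Entpd1 was last in all 6 cultures. These lengths come from merged GENCODE M21 exons and may differ from the annotation behind the counts.

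Bst1 and Cd38 lie next to each other on chromosome 5, 24566 bases apart on the same strand, with 0 protein-coding genes between them. Of the 5 nearest protein-coding genes on the outer side of each, 7 were tested in culture, with log2 fold changes from -0.53 to 1.45. Bst1, at 3.97, was chosen for its rise in culture. That its neighbours lay below it follows from this choice, and nothing is read from it. Fbxl5, a subunit of an iron-sensing ubiquitin ligase whose exons overlap Bst1 on the opposite strand by 98 bases (2.95% of the Bst1 exon bases), rose by 0.24 ± 0.05 in KO cultures (log2, SE, n = 3 each; edgeR, adjusted p = 0.00162). Fgfbp1, a carrier of fibroblast growth factors, rose by 0.41 ± 0.04 (edgeR, adjusted p = 7.43e-06). Gm16223 rose by 1.45 ± 0.36 at a level of 0.988 CPM in KO cultures and 0.363 CPM in VC cultures (edgeR, adjusted p = 0.00545).

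On the same stretch, the ciliary gene Cc2d2a fell by 0.46 ± 0.08 in KO cultures (log2, SE; edgeR, adjusted p = 0.000428). Cpeb2 at 0.03 ± 0.05, Tapt1 at -0.12 ± 0.05 and Gm7879 at -0.53 ± 0.22 were not called (edgeR, adjusted p = 0.623, 0.0648 and 0.0641). Of the 7 tested neighbours, 3 were thus called higher and 1 lower, where 23.0% of all genes were called higher and 24.9% lower. C1qtnf7, Prom1 and Ldb2 did not pass the count filter in culture. Over 678 genes of chromosome 5 with a mean of at least 8 CPM, the median culture log2 fold change was 0.10 and 65.3% were higher in KO cultures, against 49.3% of 10622 such genes on all chromosomes. In tumors none of these neighbours was called, and the largest value was Fgfbp1 at 1.32 ± 0.28, from 60.5 ± 11.0 CPM in KO tumors and 24.4 ± 8.32 CPM in VC tumors (SD, n = 3 each; edgeR, adjusted p = 0.693).

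**Figure D3:**
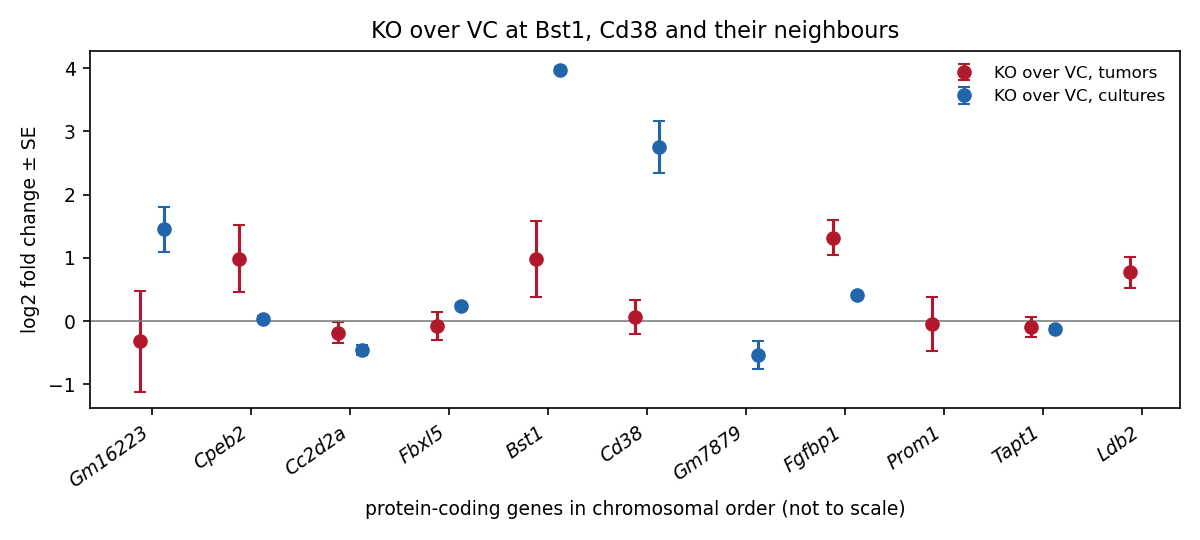
Log2 fold change with SE, KO over VC, for Bst1, Cd38 and the nearest protein-coding genes in chromosomal order (not to scale), with tumors in red and cultures in blue. A gene that did not pass the count filter of a comparison has no point there. In cultures Bst1 at 3.97 and Cd38 at 2.76 stand above neighbours that lie between -0.53 and 1.45, but Bst1 was selected on this comparison.

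The genes most like each member were taken by Pearson correlation of log2 CPM over the 12 libraries, among 11092 genes, as a description. The points share culture or tumor origin, depth and cell content. For Bst1 the nearest were Msrb3 (r = 0.958), a methionine sulfoxide reductase, and Sec62 (0.956), a part of the ER translocon, followed by Kctd20 (0.939), Rnf115 (0.935) and Slc39a10 (0.925). Msrb3 had 22.9 CPM in KO tumors, 23.5 CPM in VC tumors, 39.7 CPM in KO cultures and 17.6 CPM in VC cultures. It was highest in KO cultures and lowest in VC cultures, as Bst1 was, which follows from its choice by correlation over these libraries.

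For Cd38 the nearest were the interferon-induced genes Gbp3 (r = 0.995), Dtx3l (0.994) and Iigp1 (0.993), with Sla (0.993), an adaptor of lymphocyte receptors, and Nid1 (0.993), a basement membrane protein. Iigp1 had 421 CPM in KO tumors, 592 CPM in VC tumors, 3.01 CPM in KO cultures and 0.234 CPM in VC cultures. Among the genes nearest to Entpd1 were Tgfbi, Xist and Vim (0.997 each), the last a mesenchymal filament, and Timp3 (0.996). Nt5e was nearest to Tns1 (0.991), Mmp13, C1s and Ccl6 (0.988 each) and Ebf1 (0.984), and those near Enpp1 included Birc3 (0.985), Mmp13 and Col5a1 (0.984 each) and Ebf1 (0.983). By Spearman correlation, 1 of the 5 genes taken for Cd38 and 0 of 5 for each other member were taken again, so these names rest on the measure used.

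The wider pathways were described by 7 gene lists with 91 genes, chosen with earlier results known. In culture 55 of them were tested, and 9 were called higher and 20 lower in KO, against 23.0% higher and 24.9% lower of all 15705 genes. In tumors 72 were tested and edgeR called 0, with 6 at an unadjusted p under 0.05. DESeq2 called 1, Entpd3, and limma-voom 0.

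Other ectoenzymes of NAD and nucleotides had 1 gene called higher and 4 lower of 7 tested in culture, with a median log2 fold change of -0.35 against -0.01 over all genes. Acpp, an acid phosphatase with a membrane form that makes adenosine from AMP, had 5.50, 5.50 and 5.90 CPM in KO cultures and 0.677, 0.751 and 0.432 CPM in VC cultures. It rose by 3.18 ± 0.20 (log2, SE; edgeR, adjusted p = 8.91e-08), the only one of this list that did. In tumors it had 59.9, 23.2 and 11.5 CPM in KO tumors and 8.06, 6.12 and 17.8 CPM in VC tumors, an overlapping spread (log2 fold change 1.55 ± 0.64; edgeR, adjusted p = 0.861).

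Entpd3, a membrane ATP and ADP hydrolase related to Entpd1, ran the other way. It had 20.7, 22.2 and 21.6 CPM in KO cultures and 52.4, 51.6 and 48.1 CPM in VC cultures, and fell by 1.23 ± 0.06 (log2, SE; edgeR, adjusted p = 7.79e-09). KO tumors had 5.77, 12.1 and 12.2 CPM of Entpd3 and VC tumors 22.5, 33.6 and 25.9 CPM, so the groups did not overlap. Of all genes, 4.96% had KO tumors all above VC tumors. The share with KO tumors all below is not given here, so nothing is read from the gap. The tumor log2 fold change of -1.45 ± 0.32 was not called by edgeR (adjusted p = 0.781) but was called by DESeq2 and when all 12 samples were fitted together. Enpp5 fell by 0.79 ± 0.06 and Enpp4 by 0.51 ± 0.06 in culture (edgeR, adjusted p = 3.32e-07 and 1.7e-05), and neither was called in tumors (edgeR, adjusted p = 0.944 and 0.861).

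NAD synthesis and salvage genes had 1 called higher and 7 lower of 11 tested in culture (median log2 fold change -0.39). Nmnat2, which joins NMN and ATP into NAD, had 48.1, 45.4 and 49.0 CPM in KO cultures and 116, 111 and 103 CPM in VC cultures, and fell by 1.20 ± 0.05 (log2, SE; edgeR, adjusted p = 4.54e-09). Nadsyn1, the NAD synthetase, fell by 0.78 ± 0.08 (edgeR, adjusted p = 4.19e-06), Nmnat3 by 1.05 ± 0.16 (0.000122) and Nadk2, the mitochondrial NAD kinase, by 0.39 ± 0.06 (0.000283). In tumors Nampt, the rate-limiting enzyme of NAD salvage, stood at 227 CPM in KO and 240 CPM in VC (log2 fold change -0.08 ± 0.18; edgeR, adjusted p = 0.954). Nadk stood at 102 CPM in KO tumors and 112 CPM in VC tumors (-0.12 ± 0.16; adjusted p = 0.933).

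Enzymes that use NAD inside cells had 1 called higher and 3 lower of 12 tested in culture, a median of 0.00. Sirt1, an NAD-dependent deacetylase, rose by 0.35 ± 0.04 (log2, SE; edgeR, adjusted p = 2.09e-05), and Parp1, the polymerase that answers DNA breaks, fell by 0.37 ± 0.04 (edgeR, adjusted p = 7.46e-06). Of 3 tested calcium channels tied to NAD-derived messengers, Tpcn1, an endolysosomal channel, rose by 0.85 ± 0.05 (edgeR, adjusted p = 7.2e-08) and Ryr1, a ryanodine receptor, fell by 1.13 ± 0.27 (0.00455). Ryr1 stood at 1.07 CPM in KO cultures and 2.43 CPM in VC cultures. The channels had a median of -0.08. Tnks and Sirt7 fell by 0.15 ± 0.04 and 0.31 ± 0.08 (edgeR, adjusted p = 0.00645 and 0.00716).

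Among 7 tested genes of ATP release and P2 receptors, 2 were called higher and 1 lower in culture. P2rx4, an ATP-gated channel, rose by 0.75 ± 0.09 (log2, SE; edgeR, adjusted p = 2.73e-05), the gap junction gene Gja1 rose by 0.12 ± 0.04 (0.021), and P2ry2, a receptor of ATP and UTP, fell by 0.36 ± 0.06 (0.000338). Genes of adenosine receptors, transport and removal likewise had 2 higher and 1 lower of 7, led by Slc29a3, a lysosomal nucleoside transporter that rose by 0.60 ± 0.06 (edgeR, adjusted p = 5.64e-06). Adenosine kinase, Adk, rose by 0.29 ± 0.05 and adenosine deaminase, Ada, fell by 0.28 ± 0.09 (edgeR, adjusted p = 0.000403 and 0.0223). Pyrophosphate export and cGAMP sensing, the surroundings of Enpp1, had 1 higher and 3 lower of 8, and the phosphate transporters Slc20a1 and Slc20a2 and the pyrophosphate exporter gene Ank were those that fell. Slc19a1, a folate carrier that takes up cyclic dinucleotides in human cells, rose by 0.30 ± 0.07 (edgeR, adjusted p = 0.00342). Ank stood at 47.5 CPM in KO cultures and 61.3 CPM in VC cultures. The medians of these 3 lists were -0.14, -0.06 and -0.15. In tumors the 2 genes of highest mean in each of the 7 lists were not called either (edgeR, adjusted p from 0.861 to 0.997). Gja1, for example, stood at 425 CPM in KO tumors and 481 CPM in VC tumors, and Slc29a1, a plasma membrane adenosine transporter, at 73.9 CPM in KO tumors and 58.7 CPM in VC tumors.

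**Figure D4:**
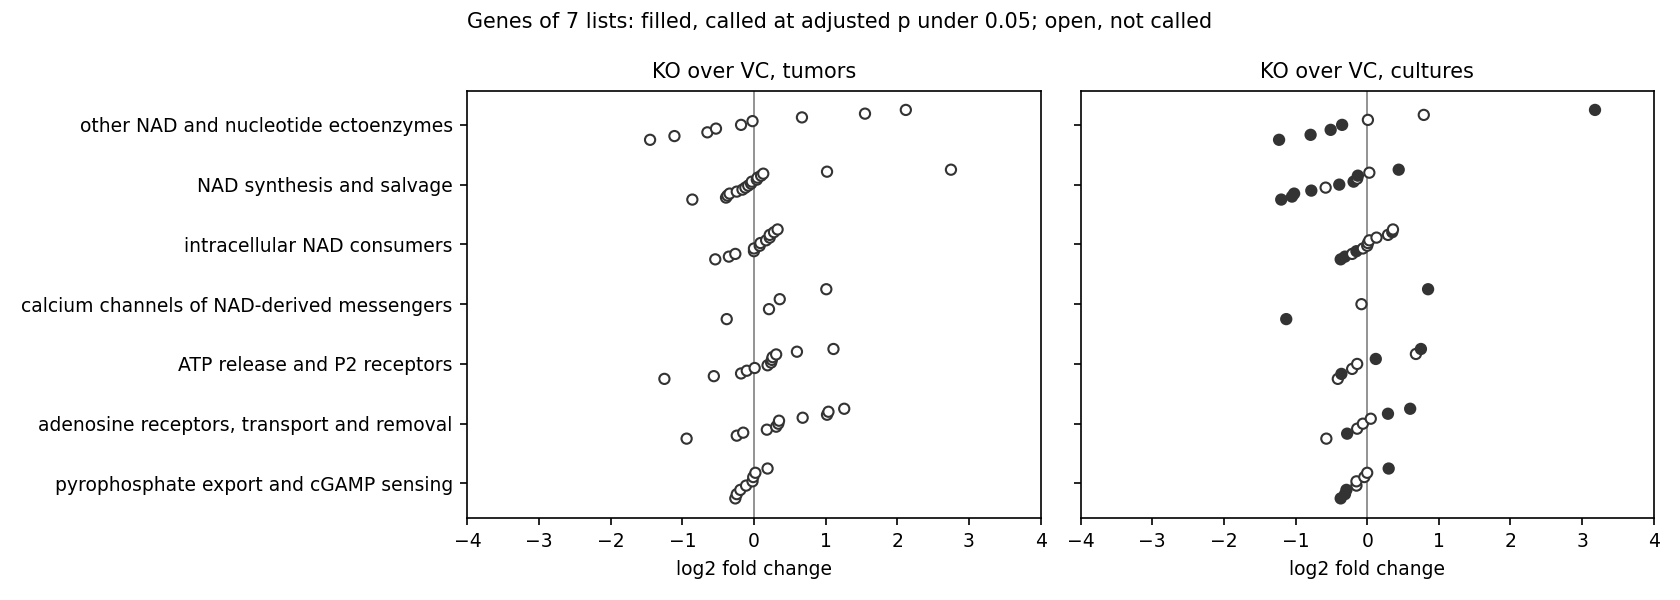
Log2 fold change, KO over VC, of each tested gene in the 7 pathway lists, in tumors on the left and cultures on the right. Filled points were called by edgeR. No tumor point is filled, and in cultures Acpp at 3.18 is the point farthest to the right.

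Between tumors and cultures the lists gave the counts below, against 35.3% of all genes called higher and 26.0% lower under KO and 35.7% higher and 29.5% lower under VC. Genes with no or few culture counts, such as Trpm2, passed the count filter only through the tumors. They could only be called higher, which raises the counts called higher and the medians. The shares over all genes hold such genes too. ATP release and P2 receptors had 9 called higher and 3 lower of 13 tested in KO tumors over KO cultures (median log2 fold change 2.76, all genes 0.13), and 9 higher and 2 lower of 13 in VC tumors over VC cultures (3.29, all genes 0.07). Intracellular NAD consumers had 3 higher and 1 lower of 12 under KO (0.08) and 2 higher and 1 lower of 12 under VC (0.08). Other ectoenzymes had 7 higher and 2 lower of 9 under KO (2.53) and 5 higher and 2 lower of 8 under VC (1.44), and NAD synthesis 9 higher and 1 lower of 16 under KO (0.76) and 8 higher and 1 lower of 16 under VC (0.57). Calcium channels had 2 higher and 0 lower of 4 under KO (1.67) and 3 higher and 1 lower of 4 under VC (1.45). Adenosine genes had 5 higher and 2 lower of 11 under KO (1.08) and 4 higher and 3 lower of 10 under VC (-0.05). Pyrophosphate and cGAMP genes had 4 higher and 3 lower of 8 under KO (0.03) and 4 higher and 4 lower of 8 under VC (-0.08). Named after their values were seen, the ATP receptor P2rx7 averaged 36.9 CPM in KO tumors, 31.5 CPM in VC tumors, 0.477 CPM in KO cultures and 0.505 CPM in VC cultures. Trpm2, a calcium channel opened by ADP-ribose, averaged 20.8 CPM in KO tumors and 18.0 CPM in VC tumors and had no count in any culture. P2ry6, a receptor of UDP, averaged 23.0 CPM in KO tumors, 20.2 CPM in VC tumors, 0.305 CPM in KO cultures and 0.640 CPM in VC cultures.

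Most host cell marker sums were higher in tumors than in cultures, along with these differences, and those of adipocytes and skeletal muscle overlapped. Dendritic cell and MHC class II markers summed to 623 to 1110 CPM in KO tumors, 512 to 1250 CPM in VC tumors, 0.229 to 0.290 CPM in KO cultures and 0.429 to 0.565 CPM in VC cultures. Endothelial markers summed to 259 to 312 CPM in KO tumors, 162 to 292 CPM in VC tumors, 8.01 to 9.97 CPM in KO cultures and 9.20 to 11.4 CPM in VC cultures, with Emcn and Erg at 0 in both culture groups. Egfl7 made up most of that culture sum, at a mean of 8.43 CPM in KO cultures and 9.28 CPM in VC cultures. It averaged 21.1 CPM in KO tumors and 17.8 CPM in VC tumors. T and NK cell markers summed to 51.4 to 132 CPM in KO tumors, 46.3 to 68.8 CPM in VC tumors, 13 to 13.4 CPM in KO cultures and 13.8 to 16.3 CPM in VC cultures. Nearly all of the culture sum was Foxp3, at a mean of 12.6 CPM in KO tumors, 8.26 CPM in VC tumors, 13.2 CPM in KO cultures and 14.7 CPM in VC cultures, so this marker was not higher in tumors, while Cd3d, Cd3g, Ncr1 and Gzmb were at 0 in both culture groups. Neutrophil markers summed to 149 to 589 CPM in KO tumors, 171 to 486 CPM in VC tumors and at most 0.951 CPM in KO cultures and 1.84 CPM in VC cultures, and pericyte markers to 190 to 275 CPM in KO tumors, 161 to 206 CPM in VC tumors and at most 2.31 CPM in KO cultures and 2.57 CPM in VC cultures. Adipocyte markers summed to 1.57 to 36.1 CPM in KO tumors, 0.133 to 11.6 CPM in VC tumors, 0.0457 to 0.174 CPM in KO cultures and 0.113 to 0.268 CPM in VC cultures, and VC tumor POGZ_VC_8451 lay within the culture range. Skeletal muscle markers overlapped between the systems, at 1.73 to 13.9 CPM in KO tumors, 4.25 to 13.1 CPM in VC tumors, 3.89 to 4.69 CPM in KO cultures and 3.22 to 4.69 CPM in VC cultures. The part of these cells in the differences was not tested.

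**Figure D5:**
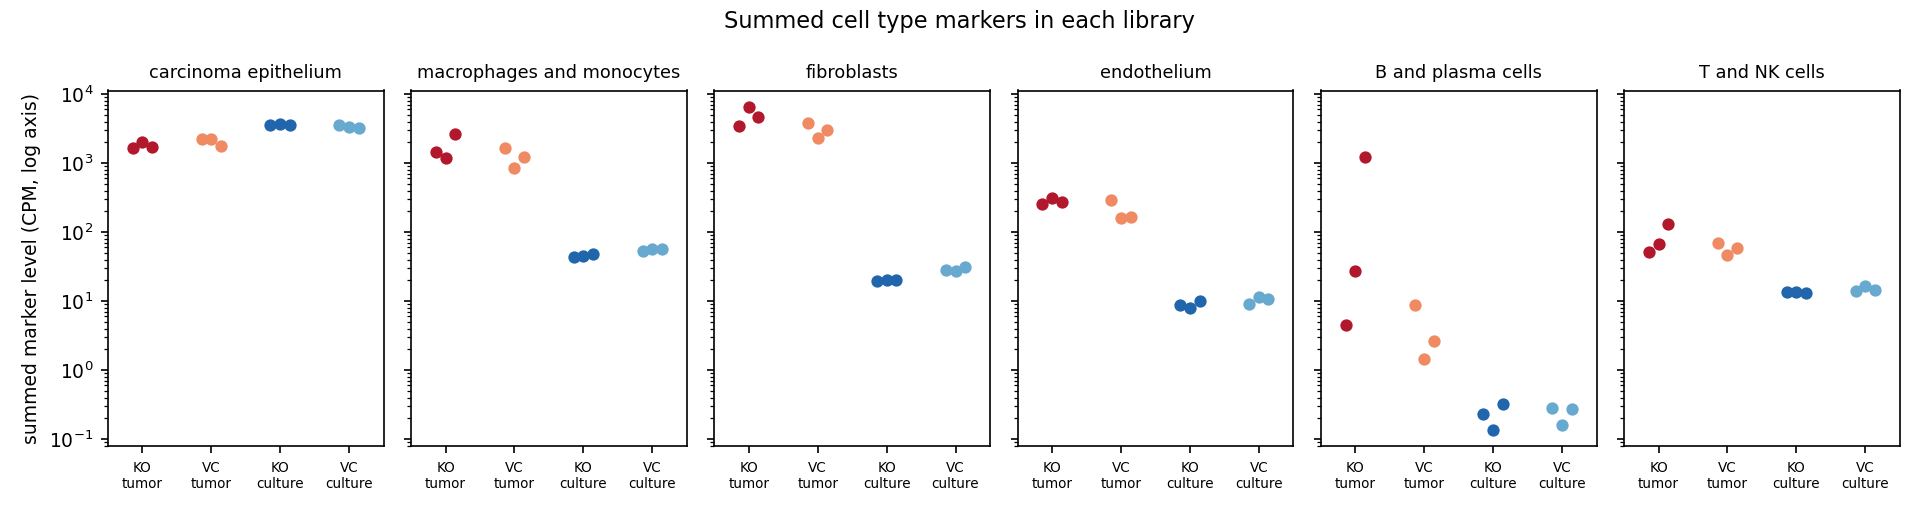
Summed level of the markers of 6 cell types in each library, in CPM on a log axis. The host markers shown are higher in every tumor than in every culture, and KO tumor POGZ_KO_8459 stands out at 1230 CPM of B and plasma cell markers, against at most 27.1 CPM in any other tumor.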

How the data were processed

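RNA was column purified, ribosomal RNA was depleted and libraries were made with KAPA RNA Hyper Prep, per the labels' protocols. The authors deposited raw counts per gene, 1 table for cultures and 1 for tumors, each with 39017 Ensembl genes. The tools were featureCounts 1.4.4, STAR 2.3.0e and Trimmomatic 0.32 on mm10 (the same assembly as GRCm38), per the submitters' processing notes. Their settings, the annotation release and the strand setting are not given in the sources used here, so reads from overlapping opposite-strand genes cannot be told apart.

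The members and all lists were chosen with earlier results of these data known. Counts were tested in R 4.3.3 with edgeR 4.0.16 (filterByExpr, TMM scaling, quasi-likelihood test, Benjamini-Hochberg adjustment over all tested genes, call at 0.05), fitting only the groups compared. The SE is the log2 fold change over the root of the F statistic. Single values were also tested by two-sided exact permutation over samples. CPM is scaled by the library total, and intervals and floors cover counting error only. Lists named up to 4 called genes per comparison, smallest p first, or the 2 of highest mean where none was called; the 5 genes most like a member and the 5 outer neighbours of Bst1 and Cd38 were also named. A few genes that this rule took are not reported here, for a reason unrelated to their values. All 91 list symbols and 87 of 88 cell type marker symbols matched. Positions came from GENCODE M21. Python 3.11.15 made tables and figures, and the scripts were tested on simulated data.

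Alternatives were RLE scaling, no filter, a filter of 1 CPM, DESeq2 1.42.0, limma-voom (limma 3.58.1), counts thinned to the smallest library, all 12 samples in 1 fit, a replicate block for cultures, Spearman correlation and leaving out each library.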

Additional observations from a re-analysis of the deposited data

Results flagged for a closer look

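Bst1 was marked because its difference between KO and VC was unlike in tumors and in cultures. The log2 fold change of KO over VC was 0.98 in tumors and 3.97 in cultures, a difference of -2.991. All 3 KO tumors had less Bst1 than every KO culture (13.7 to 70.5 CPM against 140 to 150 CPM), and all 3 VC tumors had more than every VC culture (9.47 to 28.7 CPM against 8.92 to 9.45 CPM). Of all genes, 38.0% had VC tumors all above VC cultures, and the share with KO tumors all below KO cultures is not given here. The difference of -2.991 was not tested, because Bst1 was selected on the cultures that enter it. The nearest VC tumor and VC culture stood at 9.47 and 9.45 CPM.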

How the results depend on the processing

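For the members there were 23 values and 322 alternatives, of which 316 kept their sign. The 6 that turned it all left out 1 library and concerned small values: Cd38 between tumors, Enpp1 between cultures (from -0.1387 to 0.2254) and the Nt5e tumor value less its culture value (from -0.2979 to 0.1696). For the 13 tested values no call changed in 169 alternatives. Leaving out 1 library at a time, the tumor log2 fold change of Cd38 ran from -0.2693 to 0.2304, the culture values of Bst1 and Cd38 from 3.949 to 4.012 and from 2.371 to 3.155, and the Cd38 tumor value less its culture value from -3.052 to -2.281. With counts thinned to the smallest library that last value was -1.857. Cd38 had no culture value under the stricter filter. Genes called between tumors numbered 66 by DESeq2 and 64 with all 12 samples in 1 fit, against 0. Between cultures the fit of all 12 samples called 1501 genes, against 7523, and 2 higher and 3 lower of 77 list genes, against 9 and 20 of 55. Over all 18419 genes that fit called 663 higher and 838 lower, so the larger number of lower list genes in the main fit depends on the fit used. Genes called for the difference between the systems numbered 953 by DESeq2, 172 with thinned counts and from 147 to 1588 with 1 library left out, against 377. The causes were not tested. Same-numbered cultures did not deviate together (correlations of -0.096, -0.011 and 0.042). With a replicate block 7237 genes were called between cultures, and Bst1 stood at 3.972. Depth limits Cd38 and Entpd1 in cultures, where 8 and 1 counts in the VC group set the precision.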
